A study of Homo sapiens with 8 samples.

Results

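The nuclear receptor superfamily was followed in Kasumi-1 cells, an acute myeloid leukemia line that carries the RUNX1-RUNX1T1 (AML-ETO) fusion, 6 h after RNA for a single member, NR4A1, had been introduced. The members were 46 genes chosen by symbol, and 39 of them were measured among 19775 genes on the array. NR1H2, NR1H4, NR1I2, HNF4A, NR2F2 and NR0B1 were matched to no probe set in the annotation used, and NR1D1 only to probe sets listed with THRA as well. All cells were electroporated with mRNA and came from the same line. NR4A1 WT cells (3 arrays) received the wild type receptor, NR4A1 CEAA cells (2 arrays) received a receptor whose DNA binding domain carries Cys and Glu to Ala changes in a zinc finger, and GFP cells (3 arrays) received green fluorescent protein mRNA as the control. The model is therefore 1 cell line with a transient supply of a receptor from outside. Whether the arrays of 1 group stand for separate cultures is not given in the labels, and the p-values then cover only the spread among these samples, which may be technical.

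Nuclear receptors are transcription factors that share a zinc finger DNA binding domain and, in most members, a pocket that binds a lipophilic ligand such as a steroid, thyroid hormone, a retinoid or vitamin D. Many of them bind DNA as a dimer with a retinoid X receptor (RXR), recruit coactivators or corepressors with their ligand binding domain, and read variants of the core site AGGTCA. NR4A1, NR4A2 and NR4A3 are immediate early orphan receptors with no accessible ligand pocket. They bind the extended core site AAAGGTCA, called the NBRE, as monomers, and NR4A1 and NR4A2 can also pair with RXR. In mice, loss of NR4A1 and NR4A3 together leads to acute myeloid leukemia.

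Values are log2 probe set intensities, in which 1 unit is a 2-fold difference, and a fold change below is a difference of group means on this scale. A gene was followed by its brightest probe set with a single symbol, and the level of a probe set was never set against that of another. Array medians lay between 4.75 and 4.80, and a probe set whose mean over the 8 arrays lay under the lowest of them was called dim, which held for 13 of the 39 members. Arrays of 1 group differed from each other by an SD over genes of 0.147 to 0.208, and arrays of different groups by 0.248 to 0.409. All 8 measured markers of Kasumi-1 and immature myeloid cells stood above the array median in every array, with the myeloperoxidase gene MPO brightest at 14.4. Of these 8, 6 were called in NR4A1 WT against GFP (limma), with RUNX1T1 at -0.36, CEBPA at -0.55, SPI1 (PU.1) at -0.97 (adjusted p = 7.73e-05), LYZ at -0.27, CD34 at 0.28 and the leukocyte antigen gene PTPRC at 0.52. In NR4A1 CEAA against GFP 5 were called, with CEBPA at -0.40, SPI1 at -0.55, KIT at 0.25, LYZ at 0.35 and PTPRC at 0.48. Over all genes, 20.3% were called in NR4A1 WT against GFP and 19.2% in NR4A1 CEAA against GFP. Of the markers of other cell types, 2 of 5 for T lymphocytes, 2 of 4 for B lymphocytes, 2 of 3 for erythroid cells, 3 of 5 for epithelial cells, 2 of 5 for fibroblasts and 2 of 4 for hepatocytes stood above the array median in every array. EPCAM was the brightest of these at 11.6. EPCAM differed by -0.19 (adjusted p = 0.0382, limma) in NR4A1 WT against GFP and was not called in NR4A1 CEAA against GFP, and no other marker of a foreign cell type was called in a comparison with GFP. The part of these markers, myeloid or other, in the results was not tested. In such bulk samples, fewer cells of a type and less RNA per cell cannot be told apart.

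NR4A1 WT cells differed from GFP cells in 9 of the 39 measured receptors. NR0B2 (SHP), NR3C2 (the mineralocorticoid receptor), NR3C1 (the glucocorticoid receptor) and NR2C1 (TR2) rose, and VDR (the vitamin D receptor), NR2F6 (EAR2), RXRA, NR6A1 (GCNF) and NR1D2 (REV-ERBβ) fell. This is 23.1% of the members, against 20.3% of all genes with an adjusted p under 0.05 in limma (9.97% higher and 10.3% lower). NR4A1 CEAA cells differed from GFP cells in 7 of the 39, or 17.9%, against 19.2% of all genes (7.14% higher and 12.1% lower). NR1D2, NR4A2 and NR2C1 rose there, and NR1H3 (LXRα), NR5A1 (SF-1), RARG and ESRRA fell. Against NR4A1 CEAA cells, NR4A1 WT cells differed in 12 of the 39, or 30.8%, against 31.5% of all genes (18% higher and 13.4% lower). In all 3 comparisons the share of receptors called was thus near that of the whole array.

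At the median, the differences of the members were somewhat larger than those of all genes, which was not tested. The median absolute difference of the members was 0.15 in NR4A1 WT against GFP, 0.16 in NR4A1 CEAA against GFP and 0.22 in NR4A1 WT against NR4A1 CEAA, where over all genes it was 0.11, 0.13 and 0.16. Arrays of the groups did not overlap for 15 members in the first of these comparisons, 17 in the second and 22 in the third, beside 35.6%, 51.2% and 53% of all genes. Of the 13 dim members only NR5A1 was called, in NR4A1 CEAA against GFP. Among all genes called in NR4A1 CEAA against GFP, 37.2% were higher, and this share was 48.3% when the arrays were quantile normalized again. Leaving out 1 array left 8 to 10 members called in NR4A1 WT against GFP, 1 to 8 in NR4A1 CEAA against GFP and 10 to 12 in NR4A1 WT against NR4A1 CEAA. The lowest counts of the second were 1 without NR4A1 CEAA replicate 2 and 2 without NR4A1 CEAA replicate 1.

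**Figure D1:**
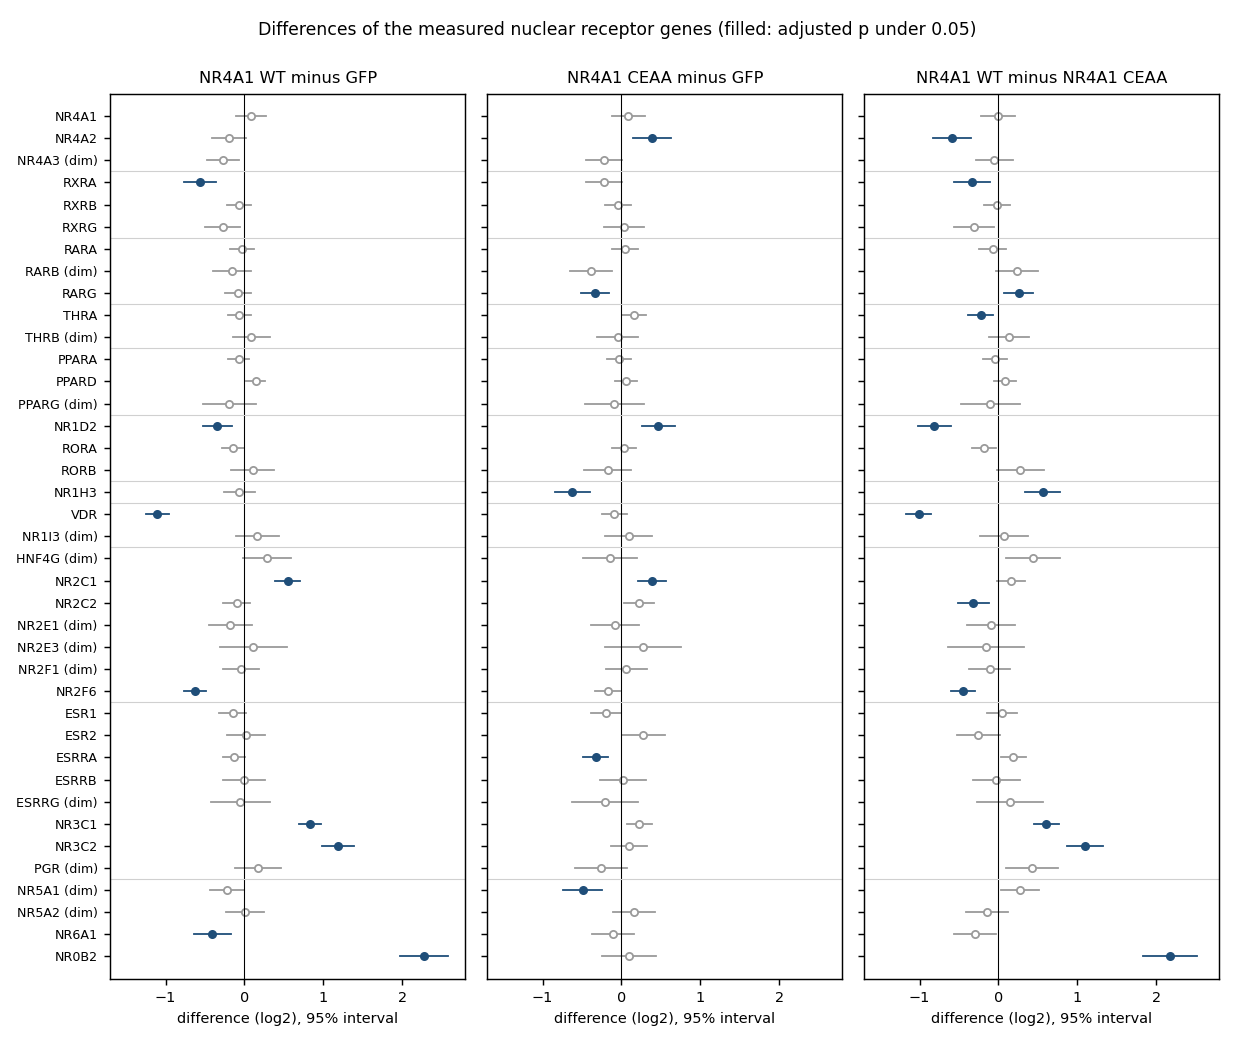
Difference of the group means on the log2 scale (x axis) with its 95% interval for each of the 39 measured receptors (y axis, grouped by role), in the 3 comparisons; filled points have an adjusted p under 0.05. NR0B2 stands farthest to the right at 2.28 in NR4A1 WT minus GFP and lies at 0.10 in NR4A1 CEAA minus GFP, and VDR stands farthest to the left at -1.10 in NR4A1 WT minus GFP.

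The NR4A genes themselves were measured by 9 probe sets. NR4A1 was covered by 3, and none of them was called in any comparison. Its brightest probe set read 6.47, 6.61 and 6.53 in NR4A1 WT cells, 6.56 and 6.52 in NR4A1 CEAA cells, and 6.58, 6.50 and 6.28 in GFP cells. The arrays overlapped, and the 95% interval of the difference from GFP was -0.11 to 0.27 for NR4A1 WT and -0.13 to 0.30 for NR4A1 CEAA. Whether these probes can read the introduced RNA at all is not known here, so they do not check the group labels.

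NR4A2 (NURR1), a paralog needed for dopamine neurons, read 5.66, 5.53 and 5.49 in NR4A1 WT cells, 6.26 and 6.03 in NR4A1 CEAA cells, and 5.90, 5.73 and 5.62 in GFP cells on its brightest probe set. Both NR4A1 CEAA arrays lay above all other arrays. The difference was 0.39 ± 0.10 (SE, adjusted p = 0.0345, limma) in NR4A1 CEAA against GFP, -0.19 ± 0.09 (adjusted p = 0.205) in NR4A1 WT against GFP, and -0.58 ± 0.10 (adjusted p = 0.00323) in NR4A1 WT against NR4A1 CEAA. The other 2 probe sets of NR4A2 gave 0.11 and 0.14 in NR4A1 CEAA against GFP and were not called. The call in NR4A1 CEAA against GFP was also lost without GFP replicate 2 (adjusted p = 0.0876), GFP replicate 3 (0.0975), NR4A1 CEAA replicate 1 (0.228) or NR4A1 CEAA replicate 2 (0.0511). NR4A3 (NOR1) was dim on all 3 of its probe sets, with values of 3.35 to 4.38, and was not called.

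**Figure D2:**
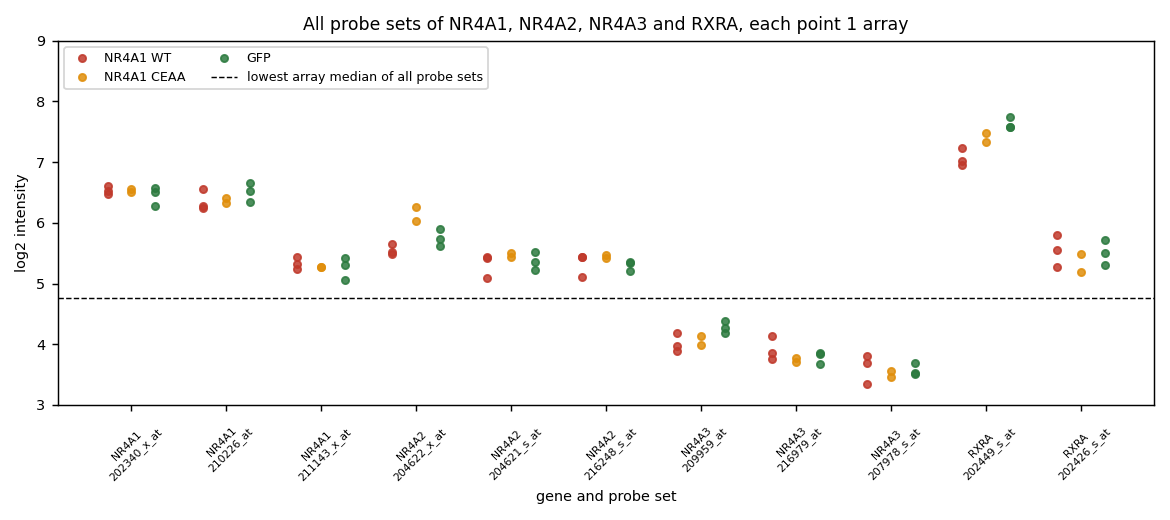
Log2 intensity (y axis) of all probe sets of NR4A1, NR4A2, NR4A3 and RXRA (x axis), each point 1 array of NR4A1 WT, NR4A1 CEAA or GFP cells; the dashed line is the lowest array median of all probe sets, 4.75. The 3 NR4A3 probe sets lie under the line, and on the brighter RXRA probe set the NR4A1 WT arrays (6.95 to 7.24) lie under the GFP arrays (7.57 to 7.74).

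Among the RXRs, the shared dimer partners, RXRA was lower in NR4A1 WT cells. It read 7.24, 6.95 and 7.02 in NR4A1 WT cells, 7.34 and 7.48 in NR4A1 CEAA cells, and 7.58, 7.57 and 7.74 in GFP cells. The 3 groups did not overlap and the NR4A1 CEAA arrays lay between the others. RXRA fell by 0.56 ± 0.09 (SE, adjusted p = 0.00271, limma) in NR4A1 WT against GFP, a 1.47-fold difference, and its difference was -0.22 (95% interval -0.45 to 0.00, adjusted p = 0.159) in NR4A1 CEAA against GFP. It was also lower in NR4A1 WT than in NR4A1 CEAA cells, by -0.34 ± 0.10 (adjusted p = 0.0327), a call that was lost without NR4A1 WT replicate 2 (0.082) or 3 (0.0802) or NR4A1 CEAA replicate 1 (0.0638) or 2 (0.201). The dimmer RXRA probe set overlapped between the groups, at 5.27 to 5.80 in NR4A1 WT cells, 5.19 and 5.49 in NR4A1 CEAA cells and 5.30 to 5.71 in GFP cells, and with the mean of both sets the difference in NR4A1 WT against GFP was -0.26 (adjusted p = 0.115). The study listed RXRA among repressed direct targets from these same arrays together with NR4A1 binding sites, so its direction is not independent evidence. RXRB differed from GFP by -0.07 in NR4A1 WT cells (interval -0.22 to 0.08), and RXRG, a form found mainly in muscle and brain, by -0.28 (adjusted p = 0.0906).

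The retinoic acid receptors, which pair with RXR and drive granulocytic maturation in myeloid cells, were called on their brightest probe sets for RARG alone. RARG read 5.80, 5.87 and 6.03 in NR4A1 WT cells, 5.67 and 5.62 in NR4A1 CEAA cells, and 6.02, 5.91 and 6.02 in GFP cells. Only the NR4A1 CEAA arrays lay below the rest. RARG fell by 0.34 ± 0.08 (SE, adjusted p = 0.0199, limma) in NR4A1 CEAA against GFP and was 0.25 ± 0.08 higher in NR4A1 WT than in NR4A1 CEAA cells (adjusted p = 0.0391). The other 2 RARG probe sets gave no call. The first call was lost without GFP replicate 1 (0.0623) or 3 (0.0648) or NR4A1 CEAA replicate 1 (0.0929) or 2 (0.116), and the second without any 1 of 6 arrays (GFP replicates 1 and 3, NR4A1 WT replicates 2 and 3, and both NR4A1 CEAA arrays), at adjusted p of 0.0581 to 0.177.

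RARA, the form rearranged in acute promyelocytic leukemia, gave unlike results on its 5 probe sets. The brightest read 6.04 to 6.13 in NR4A1 WT cells, 6.12 and 6.21 in NR4A1 CEAA cells and 6.02 to 6.22 in GFP cells, and was not called. Another, closer to the array median, read 5.08, 5.22 and 5.09 in NR4A1 WT cells, 5.43 and 5.56 in NR4A1 CEAA cells, and 5.65, 5.78 and 5.67 in GFP cells. That set fell by 0.57 ± 0.07 (SE, adjusted p = 0.00128 over all probe sets, limma) in NR4A1 WT against GFP, where 10.6% of all probe sets were called. The other 3 RARA sets were not called. THRA, a thyroid hormone receptor, was lower in NR4A1 WT than in NR4A1 CEAA cells by -0.22 ± 0.07 (adjusted p = 0.0388), a call lost without GFP replicate 3 (0.061), NR4A1 WT replicate 1 (0.0618), 2 (0.0858) or 3 (0.0712), or NR4A1 CEAA replicate 1 (0.262). A second THRA probe set gave -0.73 ± 0.13 (adjusted p = 0.0035 over all probe sets) in that comparison. THRB was dim and not called.

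NR1D2 was the receptor that moved in opposite directions with the 2 forms of NR4A1, each set against the same GFP arrays. It encodes REV-ERBβ, a heme-binding repressor of the circadian clock that competes with the ROR receptors for their response elements. NR1D2 read 8.48, 8.25 and 8.22 in NR4A1 WT cells, 9.13 and 9.13 in NR4A1 CEAA cells, and 8.75, 8.62 and 8.61 in GFP cells. No group overlapped another. It fell by 0.34 ± 0.08 (SE, adjusted p = 0.0178, limma) in NR4A1 WT against GFP, rose by 0.47 ± 0.09 (adjusted p = 0.0095) in NR4A1 CEAA against GFP, and differed by -0.81 ± 0.09 (adjusted p = 0.00029) between NR4A1 WT and NR4A1 CEAA.

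A second NR1D2 probe set spread more and showed larger differences. It read 6.19, 5.96 and 5.66 in NR4A1 WT cells, 7.58 and 7.95 in NR4A1 CEAA cells, and 6.50, 7.0 and 6.36 in GFP cells. Again no group overlapped another, and the differences were -0.69 ± 0.19 (SE, adjusted p = 0.0549 over all probe sets, limma) in NR4A1 WT against GFP, 1.15 ± 0.21 (adjusted p = 0.0103) in NR4A1 CEAA against GFP and -1.83 ± 0.21 (adjusted p = 0.000456) in NR4A1 WT against NR4A1 CEAA. On the brighter set the NR4A1 WT call against GFP was lost without GFP replicate 1 (0.0669), NR4A1 WT replicate 2 (0.0555) or NR4A1 WT replicate 3 (0.0564), and the NR4A1 CEAA call without NR4A1 CEAA replicate 1 (0.0689) or 2 (0.0609). The call between NR4A1 WT and NR4A1 CEAA held without any single array. RORA and RORB, activators at the same elements, were not called, at -0.15 (interval -0.29 to -0.01) and 0.10 (interval -0.17 to 0.37) in NR4A1 WT against GFP.

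The NR1D2 promoter is printed because it holds the E box CACGTG, the element through which CLOCK and BMAL1 drive clock genes, at 2 places, beginning at bases -155 and -105 from the start of transcription. The window runs from 250 bases before to 50 after that start (RefSeq, GRCh38.p14, chr3:23945871-23946170, plus strand), with the E boxes in capitals. An E box is present in 7.26% of the 35116 windows of this length in the table, and a match describes the letters only.

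NR1D2: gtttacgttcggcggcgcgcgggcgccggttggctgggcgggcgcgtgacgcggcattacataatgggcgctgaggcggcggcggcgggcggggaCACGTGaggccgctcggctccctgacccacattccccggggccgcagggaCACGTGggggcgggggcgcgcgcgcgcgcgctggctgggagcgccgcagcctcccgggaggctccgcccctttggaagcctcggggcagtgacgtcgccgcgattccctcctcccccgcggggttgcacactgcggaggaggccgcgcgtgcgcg

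Genes of the clock list, which holds REV-ERB and ROR targets and their circuit, were called in all 3 comparisons. Of 11 measured, 1 was higher and 4 were lower in NR4A1 WT against GFP (median -0.15, against 0.00 over all genes), 3 were higher and 2 lower in NR4A1 CEAA against GFP (median 0.13, against -0.03), and 1 was higher and 7 were lower in NR4A1 WT against NR4A1 CEAA (median -0.34, against 0.03). The shares called were 45.5%, 45.5% and 72.7%, beside 20.3%, 19.2% and 31.5% of all genes. Rank Product, an alternative test, called 2, 0 and 1 of the 11 in the same order. Only 2 of the 11 were dim, and the part of brightness in the shares called was not tested. The period gene PER2 read 7.27, 7.28 and 7.38 in NR4A1 WT cells, 7.76 and 7.84 in NR4A1 CEAA cells, and 7.47, 7.39 and 7.39 in GFP cells. Its NR4A1 CEAA arrays lay above all others, with a rise of 0.39 ± 0.06 (SE, adjusted p = 0.00522, limma) over GFP and a difference of -0.49 ± 0.06 (adjusted p = 0.0006) in NR4A1 WT against NR4A1 CEAA. PER3 differed by -0.67 ± 0.08 (adjusted p = 0.000575) in NR4A1 WT against NR4A1 CEAA. HLF, a PAR bZIP factor, fell by 0.82 (adjusted p = 0.00052) in NR4A1 WT against GFP and differed by -1.03 (adjusted p = 0.000216) in NR4A1 WT against NR4A1 CEAA. BHLHE40 (DEC1), an E box repressor, fell by 0.75 ± 0.06 (adjusted p = 9.44e-05) in NR4A1 WT against GFP, and TEF, another PAR bZIP factor, by 0.39 (adjusted p = 0.00309). NFIL3 (E4BP4), a REV-ERB target that opposes the PAR bZIP factors, rose by 0.45 ± 0.06 (adjusted p = 0.000905). BHLHE40 was also called lower in NR4A1 CEAA against GFP (-0.27, adjusted p = 0.0286), a call lost without GFP replicate 3 or other single arrays.

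**Figure D3:**
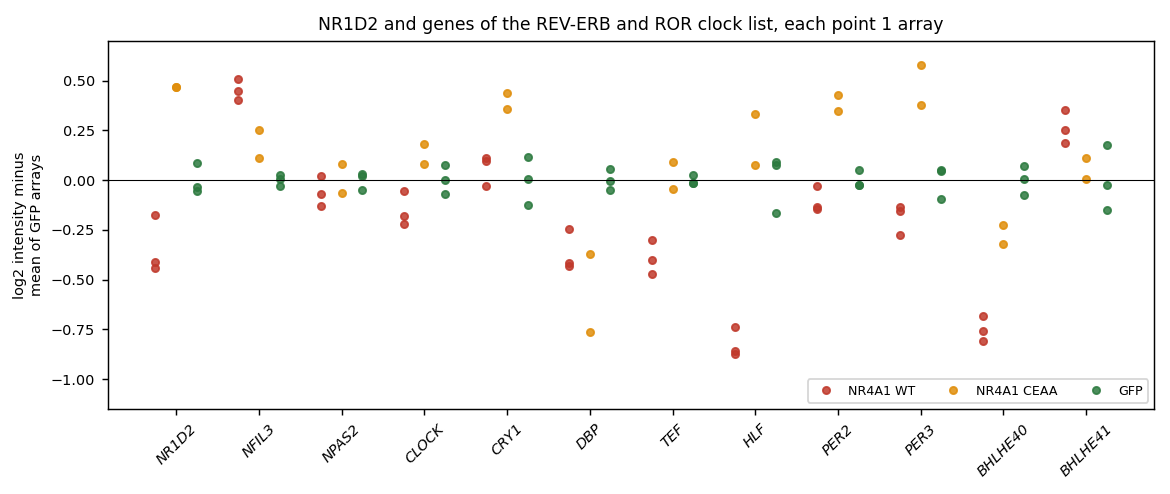
Log2 intensity minus the mean of the GFP arrays (y axis) for NR1D2 and the 11 measured genes of the clock list (x axis), each point 1 array of NR4A1 WT, NR4A1 CEAA or GFP cells. For NR1D2, PER2 and PER3 both NR4A1 CEAA arrays lie above and all NR4A1 WT arrays lie below the GFP arrays, and for BHLHE40 all NR4A1 WT arrays lie lowest, at a mean difference of -0.75.

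NR1H3, the oxysterol receptor LXRα, which activates cholesterol efflux and lipogenic genes in macrophages, fell in NR4A1 CEAA cells. It read 7.09, 7.21 and 7.07 in NR4A1 WT cells, 6.60 and 6.53 in NR4A1 CEAA cells, and 7.22, 7.02 and 7.33 in GFP cells. Both NR4A1 CEAA arrays lay below all others, and the NR4A1 WT and GFP arrays overlapped. It fell by 0.62 ± 0.09 (SE, adjusted p = 0.0041, limma) in NR4A1 CEAA against GFP, a 1.54-fold difference, and was higher by 0.56 ± 0.09 (adjusted p = 0.00252) in NR4A1 WT than in NR4A1 CEAA cells. In NR4A1 WT against GFP the interval of the difference was -0.26 to 0.13. NR1H3 has 1 probe set with a single symbol. The call in NR4A1 CEAA against GFP held without any single array.

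The NR1H3 promoter is printed because it was the only window among 26 from 12 called receptors to hold the core site AGGTCA, here in capitals and beginning at base -140 (RefSeq, GRCh38.p14, chr11:47248050-47248349, plus strand). The core site was found in 13.8% of all 35116 windows. The full NBRE, which contains the core site, was found in 1.22% of all windows, in 0 of the 26 windows of called receptors and in 4 of the 86 windows of 34 measured receptors, those of ESRRG, PPARG, NR2E1 and ESR2, none of which was called. Of these, ESRRG, PPARG and NR2E1 were dim, and ESR2 lay near the array median at a mean of 5.13. NR4A2, VDR, NR2F6 and NR0B2, the other 4 called receptors, were not searched. Both strands were searched. No match says only that these letters are not in these 300 bases.

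NR1H3: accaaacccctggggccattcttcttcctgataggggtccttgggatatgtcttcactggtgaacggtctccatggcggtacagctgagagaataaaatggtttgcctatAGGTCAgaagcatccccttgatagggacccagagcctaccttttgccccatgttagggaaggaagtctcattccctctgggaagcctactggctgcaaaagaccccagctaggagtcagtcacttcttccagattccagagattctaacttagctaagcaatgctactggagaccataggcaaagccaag

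Of the 12 measured LXR targets, 1 was higher and 2 were lower in NR4A1 WT against GFP (median -0.03), and likewise 1 and 2 in NR4A1 CEAA against GFP (median -0.02), a count that includes NR1H3 itself. Each is 25% of the list, beside 20.3% and 19.2% of all genes. SMPDL3A, a phosphodiesterase induced by LXR in macrophages, read 7.03, 7.30 and 6.85 in NR4A1 WT cells, 5.49 and 5.55 in NR4A1 CEAA cells, and 5.13, 4.92 and 4.96 in GFP cells. It rose by 2.06 ± 0.11 (SE, adjusted p = 1.13e-05, limma) in NR4A1 WT against GFP. In NR4A1 CEAA against GFP it was also called higher (0.51, adjusted p = 0.0243), a call lost without GFP replicate 3 or other single arrays. SCD, a lipid desaturase, fell by 0.99 ± 0.07 (adjusted p = 5.37e-05) in NR4A1 WT against GFP. These list members thus moved in opposite directions in the same cells.

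The PPARs, fatty acid sensing partners of RXR, were not called on their brightest probe sets. In NR4A1 WT against GFP the intervals were -0.21 to 0.06 for PPARA, 0.02 to 0.27 for PPARD (adjusted p = 0.105) and -0.53 to 0.14 for PPARG, which was dim. Of 13 measured PPAR targets, 4 were higher and 2 lower in NR4A1 WT against GFP (median 0.04), and 2 were higher and 3 lower in NR4A1 CEAA against GFP (median -0.03). The shares called were 46.2% and 38.5%, beside 20.3% and 19.2% of all genes. ACAA2, a mitochondrial thiolase of fatty acid oxidation, rose by 0.48 ± 0.05 (SE, adjusted p = 0.000316, limma) in NR4A1 WT against GFP, whereas VNN1, a pantetheinase, fell by 0.80 ± 0.08 (adjusted p = 0.00033). In NR4A1 CEAA against GFP both were called the other way, ACAA2 at -0.24 (adjusted p = 0.0201) and VNN1 at 0.39 (adjusted p = 0.0237). Both of these calls were lost without GFP replicate 3 or other single arrays.

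VDR showed the largest fall of the members in NR4A1 WT cells. The vitamin D receptor pairs with RXR and can drive monocytic maturation of myeloid leukemia cells when bound by its hormone. It read 8.0, 8.18 and 8.05 in NR4A1 WT cells, 9.10 and 9.08 in NR4A1 CEAA cells, and 9.20, 9.22 and 9.12 in GFP cells. All 3 NR4A1 WT arrays lay about 1 log2 unit below the others. VDR fell by 1.10 ± 0.06 (SE, adjusted p = 1.3e-05, limma) in NR4A1 WT against GFP, a 2.15-fold difference, and by 1.01 ± 0.07 (adjusted p = 3.45e-05) in NR4A1 WT against NR4A1 CEAA. In NR4A1 CEAA against GFP the interval was -0.25 to 0.07 (adjusted p = 0.415).

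A second VDR probe set gave the same size of fall, reading 6.91, 6.94 and 6.81 in NR4A1 WT cells, 7.83 and 7.82 in NR4A1 CEAA cells, and 7.97, 8.02 and 7.97 in GFP cells, with a difference of -1.10 ± 0.06 (SE, adjusted p = 1.44e-05 over all probe sets, limma) in NR4A1 WT against GFP. The other 2 VDR sets were dimmer and differed by -0.27 (adjusted p = 0.105) and 0.08 (adjusted p = 0.688). The first of these was lower in NR4A1 CEAA against GFP, by -0.51 (adjusted p = 0.0144), where 12.7% of all probe sets were called. None of the 11 measured VDR targets was called by limma in either comparison with GFP, beside 20.3% and 19.2% of all genes. At an unadjusted p under 0.05 there were 0 in NR4A1 WT and 2 in NR4A1 CEAA, Rank Product called 0 in each, and 7 of the 11 were dim. The medians were 0.00 in NR4A1 WT and -0.17 in NR4A1 CEAA. NR1I3 (CAR), a xenobiotic receptor of liver, was dim and not called.

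Of the NR2 orphan receptors, NR2F6 (EAR2), a COUP family repressor described as a block to maturation in leukemia cells, fell in NR4A1 WT cells. It read 8.27, 8.16 and 8.19 in NR4A1 WT cells, 8.74 and 8.58 in NR4A1 CEAA cells, and 8.81, 8.82 and 8.88 in GFP cells. No group overlapped another. The fall in NR4A1 WT against GFP was 0.63 ± 0.06 (SE, adjusted p = 0.000199, limma), the difference in NR4A1 WT against NR4A1 CEAA was -0.45 ± 0.07 (adjusted p = 0.00124), and the interval in NR4A1 CEAA against GFP was -0.33 to -0.02 (adjusted p = 0.109). The other 2 probe sets of NR2F6 were not called.

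The testicular receptors TR2 (NR2C1) and TR4 (NR2C2), which bind direct repeats and act in globin gene control, differed in their pattern. NR2C1 read 8.33, 8.18 and 8.16 in NR4A1 WT cells, 8.04 and 8.08 in NR4A1 CEAA cells, and 7.67, 7.77 and 7.58 in GFP cells. Both forms of NR4A1 stood above GFP, by 0.55 ± 0.07 (SE, adjusted p = 0.000803, limma) for NR4A1 WT and 0.39 ± 0.08 (adjusted p = 0.0109) for NR4A1 CEAA, and the interval between them was -0.01 to 0.34. The NR4A1 CEAA call was lost without NR4A1 CEAA replicate 1 (0.0645) or 2 (0.0759). None of the other 3 NR2C1 probe sets, 2 of them dim, was called in NR4A1 WT against GFP (differences of 0.04 to 0.37), and 1 was called in NR4A1 CEAA against GFP (0.46, adjusted p = 0.0127 over all probe sets). With the mean of all 4 sets the difference in NR4A1 WT against GFP was 0.31 (adjusted p = 0.00512).

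NR2C2 read 9.23, 8.95 and 9.14 in NR4A1 WT cells, 9.41 and 9.44 in NR4A1 CEAA cells, and 9.20, 9.25 and 9.17 in GFP cells. It was lower in NR4A1 WT than in NR4A1 CEAA cells by -0.32 ± 0.08 (SE, adjusted p = 0.02, limma), a call lost without NR4A1 CEAA replicate 1 (0.0816) or 2 (0.108). A second, dimmer NR2C2 set read 5.17, 5.19 and 4.65 in NR4A1 WT cells, 6.03 and 5.73 in NR4A1 CEAA cells, and 5.05, 5.12 and 5.07 in GFP cells. Here the NR4A1 CEAA arrays stood apart, 0.80 ± 0.16 above GFP (adjusted p = 0.0141 over all probe sets). HNF4G, NR2E1, NR2E3 and NR2F1 were dim and not called.

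The 2 corticosteroid receptors rose in NR4A1 WT cells. NR3C1, the glucocorticoid receptor, read 11.12, 11.08 and 11.10 in NR4A1 WT cells, 10.54 and 10.46 in NR4A1 CEAA cells, and 10.32, 10.34 and 10.16 in GFP cells. The NR4A1 WT arrays stood above all others and the NR4A1 CEAA arrays lay just above GFP. NR3C1 rose by 0.83 ± 0.06 (SE, adjusted p = 5.57e-05, limma) in NR4A1 WT against GFP, a 1.78-fold difference, and was 0.60 ± 0.07 higher (adjusted p = 0.000335) in NR4A1 WT than in NR4A1 CEAA cells. In NR4A1 CEAA against GFP it differed by 0.22 (interval 0.07 to 0.38, adjusted p = 0.055). This difference was called under some alternatives. Among them were quantile normalization again (0.28, adjusted p = 0.0229, limma) and the mean of its probe sets (0.22, adjusted p = 0.0405). All 4 other NR3C1 probe sets were also higher in NR4A1 WT than in GFP cells, by 0.77 to 0.91, with 1 of them dim, and 3 of the 4 were higher than in NR4A1 CEAA cells.

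Among the 7 NR3C1 promoter windows in the table, the window printed was chosen since it holds the ETS type site CCGGAAG. This site was found in 3 of the 26 windows of called receptors, or 11.5%, beside 10.3% of all windows. It is shown in capitals on the opposite strand as CTTCCGG (RefSeq, GRCh38.p14, chr5:143405306-143405605, minus strand).

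NR3C1: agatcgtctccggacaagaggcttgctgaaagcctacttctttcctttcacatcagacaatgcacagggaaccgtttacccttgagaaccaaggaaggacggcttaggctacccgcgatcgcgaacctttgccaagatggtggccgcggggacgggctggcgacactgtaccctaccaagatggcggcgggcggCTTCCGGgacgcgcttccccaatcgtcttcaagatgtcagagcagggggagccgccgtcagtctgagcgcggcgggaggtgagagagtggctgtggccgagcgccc

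NR3C2, the mineralocorticoid receptor, which binds both aldosterone and cortisol, read 6.88, 6.75 and 6.72 in NR4A1 WT cells, 5.77 and 5.62 in NR4A1 CEAA cells, and 5.46, 5.76 and 5.57 in GFP cells. The NR4A1 WT arrays lay about 1 log2 unit above the others, and the NR4A1 CEAA and GFP arrays overlapped. It rose by 1.19 ± 0.09 (SE, adjusted p = 5.84e-05, limma) in NR4A1 WT against GFP, a 2.28-fold difference, and was 1.09 ± 0.10 higher (adjusted p = 0.000122) in NR4A1 WT than in NR4A1 CEAA cells, with an interval of -0.13 to 0.33 in NR4A1 CEAA against GFP. NR3C2 has 1 probe set.

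Of 14 measured glucocorticoid receptor targets, 1 was higher and 6 were lower in NR4A1 WT against GFP (median -0.18), 1 was higher and 3 were lower in NR4A1 CEAA against GFP (median -0.04), and 2 were higher and 6 lower in NR4A1 WT against NR4A1 CEAA (median -0.17). The shares called were 50%, 28.6% and 57.1%, beside 20.3%, 19.2% and 31.5% of all genes. RGS2, a regulator of G protein signaling, rose by 0.94 ± 0.07 (SE, adjusted p = 4.68e-05, limma) in NR4A1 WT against GFP. CEBPD, a C/EBP factor, fell by 0.65 ± 0.05 (adjusted p = 7.94e-05), DDIT4 (REDD1), an inhibitor of mTORC1, by 0.57 (adjusted p = 0.00147) and FKBP5, the immunophilin of the receptor's own feedback, by 0.38 ± 0.05 (adjusted p = 0.00144). FKBP5 read 10.73, 10.80 and 10.65 in NR4A1 WT cells, 11.13 and 11.16 in NR4A1 CEAA cells, and 11.10, 11.13 and 11.11 in GFP cells, so that the NR4A1 WT arrays alone were low. DDIT4 was also called lower in NR4A1 CEAA against GFP (-0.32, adjusted p = 0.0423), a call lost without GFP replicate 3 or other single arrays.

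Of the estrogen and estrogen-related receptors only ESRRA was called on its brightest probe set. ESRRA, which works with PGC-1 coactivators on mitochondrial genes, read 8.48, 8.29 and 8.36 in NR4A1 WT cells, 8.19 and 8.18 in NR4A1 CEAA cells, and 8.50, 8.47 and 8.56 in GFP cells. The NR4A1 CEAA arrays lay lowest. It fell by 0.33 ± 0.07 (SE, adjusted p = 0.0137, limma) in NR4A1 CEAA against GFP, a call lost without NR4A1 CEAA replicate 1 (0.0836) or 2 (0.0798) and not made on its other probe set. ESR1, ESR2 and ESRRB were not called, with differences from GFP of -0.15 to 0.02 in NR4A1 WT cells and -0.19 to 0.28 in NR4A1 CEAA cells, and ESRRG and PGR were dim.

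NR0B2 showed the largest difference of any member. It encodes SHP, a receptor without a DNA binding domain that binds other nuclear receptors and represses them, best known in liver as a brake on bile acid synthesis. NR0B2 read 7.36, 7.74 and 7.59 in NR4A1 WT cells, 5.30 and 5.47 in NR4A1 CEAA cells, and 5.45, 5.02 and 5.38 in GFP cells. The NR4A1 WT arrays stood about 2 log2 units above the others, which overlapped each other. It rose by 2.28 ± 0.13 (SE, adjusted p = 1.59e-05, limma) in NR4A1 WT against GFP, a 4.85-fold difference, and was 2.18 ± 0.15 higher (adjusted p = 3.44e-05) in NR4A1 WT than in NR4A1 CEAA cells. In NR4A1 CEAA against GFP the interval was -0.24 to 0.44. NR0B2 has 1 probe set. Both calls held without any single array.

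NR6A1 (GCNF), a germ cell and embryonic repressor, read 5.98, 6.34 and 6.31 in NR4A1 WT cells, 6.54 and 6.48 in NR4A1 CEAA cells, and 6.53, 6.73 and 6.60 in GFP cells. It fell by 0.41 ± 0.10 (SE, adjusted p = 0.0251, limma) in NR4A1 WT against GFP, and 1 of its 6 other probe sets also fell, by 0.36 (adjusted p = 0.0185 over all probe sets). The call was lost without GFP replicate 2 (0.0884) or 3 (0.064), and with the mean of all 7 probe sets, where the difference was -0.16 (0.0917). NR5A1 (SF-1), a steroidogenic factor of adrenal and gonad, was dim, with values of 3.83 to 4.59. Its difference of -0.49 ± 0.11 (adjusted p = 0.0152) in NR4A1 CEAA against GFP was lost without NR4A1 CEAA replicate 2 (0.114). NR5A2 was dim and not called.

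**Figure D4:**
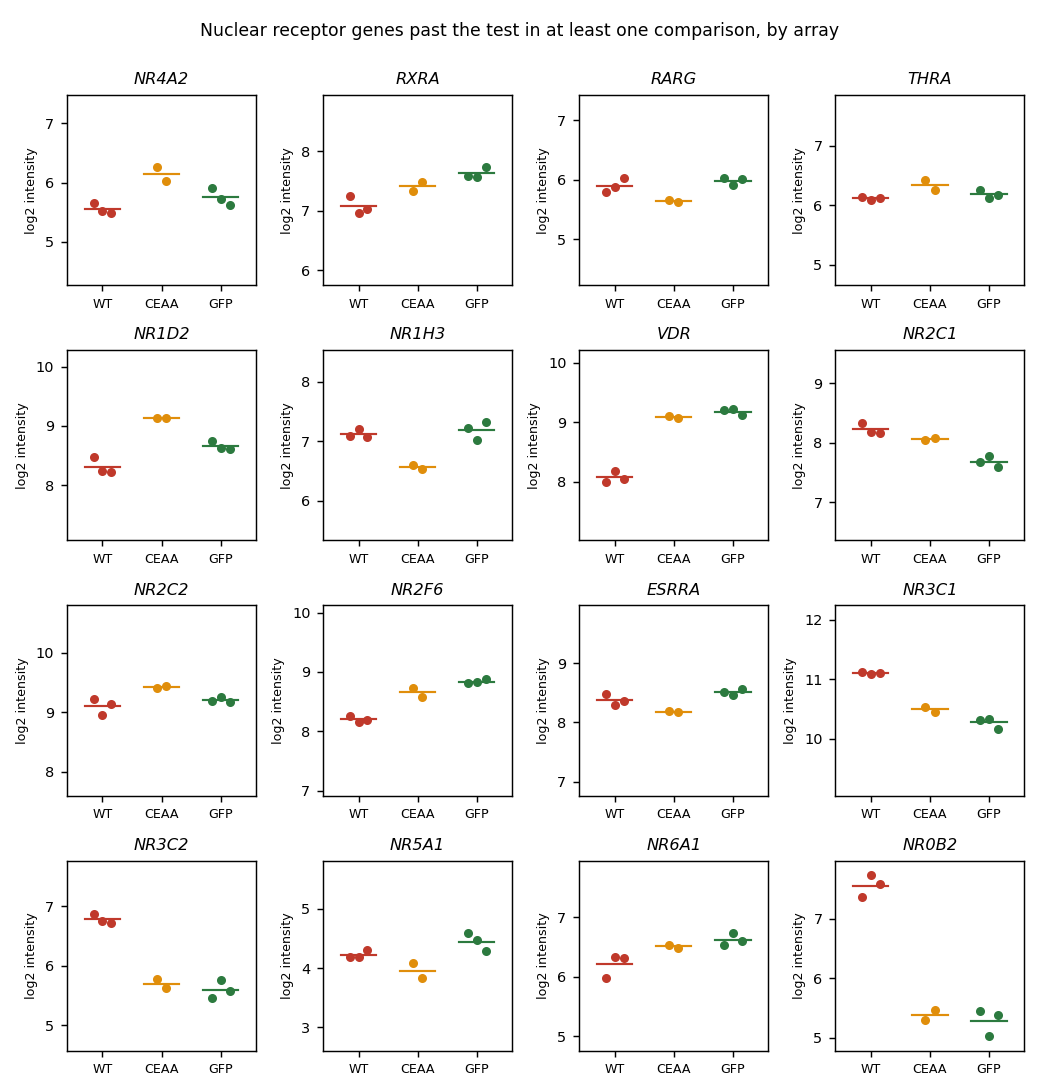
Log2 intensity (y axis, 3.2 units high in every panel) of the 16 receptors called in at least 1 comparison, with NR4A1 WT, NR4A1 CEAA and GFP cells on the x axis; points are arrays and lines are group means. NR0B2, NR3C2 and NR3C1 stand highest and VDR stands lowest in NR4A1 WT cells, whereas NR1H3 is low and NR1D2 is high in NR4A1 CEAA cells. For NR3C1 the NR4A1 CEAA arrays also lie just above GFP.

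Probe sets of the same gene did not always give the same call. The plot of every probe set of 10 receptors by brightness shows 2 bright VDR sets with the same fall and 5 NR3C1 sets with a like rise in NR4A1 WT cells, whereas for NR2F6, RXRA and NR4A2 only the brightest set was called. Over all probe sets of the members, 17 of 127 were called in NR4A1 WT against GFP, 14 in NR4A1 CEAA against GFP and 26 in NR4A1 WT against NR4A1 CEAA, beside 10.6%, 12.7% and 22.1% of all probe sets in the same order. With the mean of all probe sets of a gene, the difference in NR4A1 WT against GFP was smaller and still called for VDR (-0.60) and NR2F6 (-0.30). The calls of NR4A2 (0.21, adjusted p = 0.0811, limma) and RARG (-0.16, adjusted p = 0.217) in NR4A1 CEAA against GFP were lost with that mean. So were those of RXRA (-0.07), RARG (0.05) and NR2F6 (-0.15) in NR4A1 WT against NR4A1 CEAA.

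**Figure D5:**
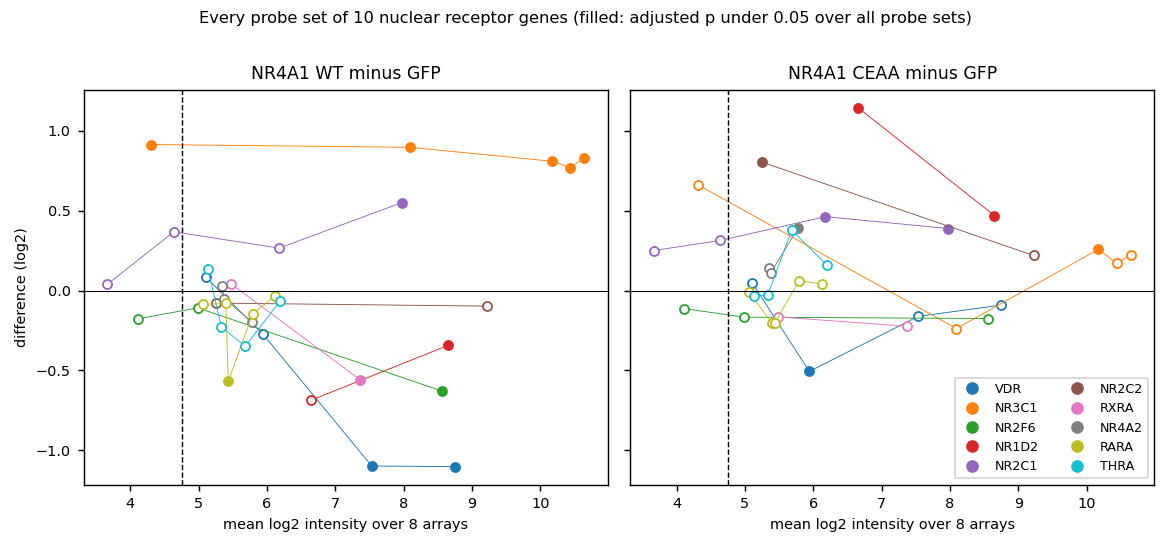
Difference from GFP on the log2 scale (y axis) against the mean log2 intensity over 8 arrays (x axis) for every probe set of 10 receptor genes, with NR4A1 WT on the left and NR4A1 CEAA on the right; lines join the sets of 1 gene, filled points have an adjusted p under 0.05 over all probe sets, and the dashed line is the lowest array median, 4.75. The 5 NR3C1 sets lie between 0.77 and 0.91 on the left, and 1 NR1D2 set reaches 1.15 on the right.

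Coactivators, which carry the transcriptional output of bound receptors, were called in both directions. Of 29 measured coactivators, 7 were higher and 9 lower in NR4A1 WT against GFP (55.2%, median -0.02), 7 were higher and 6 lower in NR4A1 CEAA against GFP (44.8%, median 0.07), and 9 were higher and 8 lower in NR4A1 WT against NR4A1 CEAA (58.6%, median -0.10), beside 20.3%, 19.2% and 31.5% of all genes. Only 3 of these 29 were dim, as were 1 of the 17 corepressors and 0 of the 12 chaperones below. The part of brightness in the shares called was not tested. PPARGC1B (PGC-1β), a coactivator of ESRRA, read 7.25, 7.10 and 7.20 in NR4A1 WT cells, 8.48 and 8.45 in NR4A1 CEAA cells, and 7.81, 7.96 and 7.76 in GFP cells. It moved in opposite directions against the same GFP arrays, by -0.66 ± 0.07 (SE, adjusted p = 0.000312, limma) in NR4A1 WT and 0.62 ± 0.08 (adjusted p = 0.00189) in NR4A1 CEAA cells, with -1.28 ± 0.08 between them (adjusted p = 1.99e-05). So did ASCC1 (0.34 in NR4A1 WT and -0.34 in NR4A1 CEAA), SRA1 (0.20 and -0.29) and NCOA7 (-0.19 and 0.24). All 3 were called both times, as were some genes of other lists. The acetyltransferase gene CREBBP rose by 0.52 and the p160 coactivator NCOA2 by 0.74 in NR4A1 WT against GFP (adjusted p = 0.000203 and 0.000131), and CITED2, a binding partner of p300 and CBP, fell by 0.72 (adjusted p = 0.000438). CREBBP was also called higher in NR4A1 CEAA against GFP (0.20, adjusted p = 0.0422), a call lost without GFP replicate 3 or other single arrays.

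Of 17 measured corepressors, 3 were higher and 1 was lower in NR4A1 WT against GFP (23.5%, median -0.02), 4 were higher and 4 lower in NR4A1 CEAA against GFP (47.1%, median -0.09), and 7 were higher and 4 lower in NR4A1 WT against NR4A1 CEAA (64.7%, median 0.19), beside the same shares of all genes. The first of these counts is thus near that of the whole array. NRIP1 (RIP140), a ligand-dependent corepressor, read 10.93, 10.95 and 10.79 in NR4A1 WT cells, 10.19 and 10.15 in NR4A1 CEAA cells, and 9.91, 9.87 and 9.88 in GFP cells. The groups did not overlap, and it rose by 1.00 ± 0.06 (SE, adjusted p = 1.46e-05, limma) in NR4A1 WT against GFP. LCOR, another ligand-dependent corepressor, rose by 0.89 ± 0.06 (adjusted p = 2.63e-05) and BCL6, a zinc finger repressor that the study also picked on these arrays, by 1.38 ± 0.08 (adjusted p = 1.56e-05). For BCL6 the study also reports induction by RT-qPCR. NRIP1 (0.28, adjusted p = 0.0185), LCOR (0.28, 0.0186) and BCL6 (0.43, 0.0134) were also called higher in NR4A1 CEAA against GFP. Each of these NR4A1 CEAA calls was lost without NR4A1 CEAA replicate 1 or 2. GPS2, a subunit of the NCoR complex, fell by 0.73 (adjusted p = 0.00144) in NR4A1 CEAA against GFP.

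Chaperones that hold steroid receptors ready for ligand were called in all 3 comparisons. Of 12 measured, 0 were higher and 4 lower in NR4A1 WT against GFP (median -0.12), beside 9.97% of all genes higher and 10.3% lower, and 0 were higher and 5 lower in NR4A1 CEAA against GFP (median -0.16), beside 7.14% and 12.1%. In NR4A1 WT against NR4A1 CEAA, 6 were higher and 5 lower, or 91.7%, beside 31.5% of all genes. In NR4A1 WT cells the receptor immunophilin FKBP4 fell by 0.52 (adjusted p = 0.000343, limma) and the cochaperone BAG1 by 0.49 (adjusted p = 0.00054). FKBP4 was also called lower in NR4A1 CEAA against GFP (-0.21, adjusted p = 0.0436), a call lost without GFP replicate 3 or other single arrays. In NR4A1 CEAA cells the kinase cochaperone CDC37 fell by 1.09 ± 0.07 (SE, adjusted p = 0.000233), the HSP70-HSP90 adaptor STIP1 by 1.02 ± 0.06 (adjusted p = 0.000176) and the phosphatase PPP5C by 1.32 ± 0.15 (adjusted p = 0.00147). CDC37 read 10.01, 10.16 and 10.06 in NR4A1 WT cells, 9.14 and 9.01 in NR4A1 CEAA cells, and 10.18, 10.11 and 10.19 in GFP cells. The low values were thus those of the NR4A1 CEAA arrays.

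Genes of ligand supply were also counted. Of 15 measured genes of retinoid handling, 0 were higher and 1 was lower in NR4A1 WT against GFP, and 1 was higher and 1 lower in NR4A1 CEAA against GFP (medians -0.01 and 0.09), and 1 was higher and 3 were lower in NR4A1 WT against NR4A1 CEAA. These are 6.67%, 13.3% and 26.7%, beside 20.3%, 19.2% and 31.5% of all genes. Of 20 genes of steroid, thyroid and vitamin D handling, 10 of them dim, 1 was higher and 1 lower in NR4A1 WT against GFP, 2 were higher and 2 lower in NR4A1 CEAA against GFP (medians -0.01 and 0.03), and 4 were higher and 2 lower in NR4A1 WT against NR4A1 CEAA. These are 10%, 20% and 30%, the last 2 near the shares of all genes. SLC16A10, a thyroid hormone and amino acid transporter, fell by 0.47 (adjusted p = 0.000583, limma) in NR4A1 WT against GFP. In NR4A1 CEAA against GFP it was called higher (0.25, adjusted p = 0.0243), a call lost without GFP replicate 3 or other single arrays. Of 11 retinoic acid and RXR targets, 1 was higher and 3 were lower in each comparison with GFP. The medians were -0.15 in NR4A1 WT and -0.32 in NR4A1 CEAA. The share called was 36.4% of the list in each, beside 20.3% and 19.2% of all genes. In NR4A1 WT against NR4A1 CEAA, 3 were higher and 0 lower, or 27.3%, beside 31.5% of all genes. PRAM1, an adaptor of myeloid cells, fell by 0.84 (adjusted p = 0.00332) in NR4A1 WT against GFP. CEBPE, the granulocytic C/EBP factor, was lower than in the shared GFP arrays in both, by 0.67 ± 0.08 (adjusted p = 0.00076) in NR4A1 WT and 0.58 ± 0.09 (adjusted p = 0.00464) in NR4A1 CEAA cells.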

How the data were processed

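RNA of Kasumi-1 cells, taken 6 h after electroporation with mRNA for NR4A1 WT, NR4A1 CEAA or GFP, was hybridized to Affymetrix U133 Plus arrays (8 arrays). The deposited values are log2 intensities that the authors made by RMA (background correction, quantile normalization and summary of each probe set, per the study's methods and the labels; version not given in the sources used here). RMA shrinks differences of dim probe sets, and no detection call was used. Of 54613 probe sets, 41091 had 1 symbol in the platform annotation, 1801 several and 11721 none. The 19775 genes with a set of their own were each followed by their brightest set (highest mean over all arrays). The number of arrays limits the precision.

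All 3 groups were fitted together in limma 3.58.1 (R 4.3.3, lmFit and eBayes), with 8.04 degrees of freedom per gene, Benjamini-Hochberg adjustment over all genes and a threshold of 0.05. Other probe sets of the members were read from the same fit over all 54613 sets, with p adjusted over them. Intervals are 95%. Rank Product, which the study's methods name, was run with 100 permutations at q under 0.05 as an alternative. Further alternatives were an intensity trend, array weights, a fit on just the groups compared, a filter on dim sets, median centring, quantile normalization again, a replicate block, an adjusted p under 0.01, the mean of a gene's probe sets, the fit over all probe sets, and each array left out. The fit was tested on simulated data.

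All called members are named, and of each pathway list a few called genes, chosen after the values were seen among those whose printed call held without any single array. The NR4A1 CEAA calls of NRIP1, LCOR, BCL6, FKBP4, BHLHE40, DDIT4, CREBBP, SLC16A10, VNN1, ACAA2 and SMPDL3A did not hold in this way. Nor did some calls of ASCC1, SRA1 and NCOA7. The rule of naming up to 3 genes a direction by size was not kept throughout: some larger changes are not named and some smaller ones are. The members and lists were chosen with earlier results of these data known. Promoter windows (RefSeq, GRCh38.p14; 34 of the 39 measured members) were searched in Python 3.11.15 for AAAGGTCA and AGGTCA, and, chosen after the values were seen, CCGGAAG and CACGTG. The windows printed were also chosen after the values were seen.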

Additional observations from a re-analysis of the deposited data

How the results depend on the processing

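Of 531 alternative values of single called receptors, 444 stayed called in the same direction, 87 were no longer called and 0 reversed. Calls that held under every alternative run were VDR, NR2F6, NR3C1, NR3C2 and NR0B2 in NR4A1 WT against GFP, NR1H3 in NR4A1 CEAA against GFP, and VDR, NR3C2 and NR0B2 in NR4A1 WT against NR4A1 CEAA.

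At an adjusted p under 0.01, limma called 2401 of all genes in NR4A1 WT against GFP (4005 at 0.05), 1618 in NR4A1 CEAA against GFP (3796) and 4124 in NR4A1 WT against NR4A1 CEAA (6225), and for the pathway lists 33 (50), 20 (52) and 49 (78). Receptors in NR4A1 CEAA against GFP then numbered 2 in place of 7, and their probe sets 1 in place of 14, with 16 in place of 26 in NR4A1 WT against NR4A1 CEAA. Rank Product called 860, 361 and 539 genes in the same order, 5, 1 and 3 receptors in place of 9, 7 and 12, and 16, 6 and 10 list genes. Among the receptors it did not call in NR4A1 WT against GFP were RXRA (q = 0.0687) and NR2C1 (q = 0.0774). With an intensity trend 11 receptors in place of 7 were called in NR4A1 CEAA against GFP, and 5065 of all genes in place of 3796.

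Same-numbered arrays of different groups shared only a number (correlations of their deviations of -0.04 to 0.09 over 7 pairs, against -0.09 to 0.09 over 14 other pairs). With the replicate block, 2465 genes, 32 list genes and 9 probe sets of the receptors were called in NR4A1 CEAA against GFP, and RXRA, RARG and NR2C2 were not called in NR4A1 WT against NR4A1 CEAA (adjusted p = 0.0726, 0.0897 and 0.0564), nor RARG in NR4A1 CEAA against GFP (0.0559).

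Without 1 array, the genes called ranged over 3006 to 3690 in NR4A1 WT against GFP, 1308 to 4032 in NR4A1 CEAA against GFP and 4226 to 6132 in NR4A1 WT against NR4A1 CEAA. The receptors ranged over 8 to 10, 1 to 8 and 10 to 12, their probe sets over 13 to 17, 1 to 14 and 17 to 28, and the list genes over 37 to 49, 18 to 55 and 49 to 77. The lowest values in NR4A1 CEAA against GFP came with a single NR4A1 CEAA array, assumed to vary like the other groups.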

Other observations

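NR1D1, the REV-ERBα gene and paralog of NR1D2, lies on the opposite strand from THRA with overlapping ends, and its 3 probe sets were listed with both genes, so they were not counted for either. The brightest read 7.54, 7.45 and 7.60 in NR4A1 WT cells, 8.14 and 8.09 in NR4A1 CEAA cells, and 7.66, 7.59 and 7.72 in GFP cells. Both NR4A1 CEAA arrays lay above all others. The set was 0.46 ± 0.08 higher in NR4A1 CEAA than in GFP cells (SE, adjusted p = 0.00649 over all probe sets, limma), differed by -0.59 ± 0.08 between NR4A1 WT and NR4A1 CEAA (adjusted p = 0.000782), and by -0.13 (adjusted p = 0.323) between NR4A1 WT and GFP. The other 2 shared sets were dim and not called. Which of the genes the probes read was not tested.

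Among receptors just outside the threshold, RARB, which is dim, differed by -0.39 (adjusted p = 0.0537) in NR4A1 CEAA against GFP and PGR, also dim, by 0.43 (adjusted p = 0.0527) in NR4A1 WT against NR4A1 CEAA. NR2C2 was called higher in NR4A1 CEAA than in GFP cells when all its probe sets were averaged (0.51, adjusted p = 0.00571), and was not called on its brightest set alone. On a probe set near the array median, RXRB read 4.59, 4.96 and 5.42 in NR4A1 WT cells, 3.96 and 4.28 in NR4A1 CEAA cells, and 5.03, 4.83 and 5.19 in GFP cells, and was called lower in NR4A1 CEAA than in GFP cells (-0.89 ± 0.22 SE, adjusted p = 0.0311 over all probe sets), whereas its brightest set was not.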
